A study of Homo sapiens with 18 samples.

Results

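The tissue factor and plasminogen system was described by 9 genes, F3, TFPI, TFPI2, THBD, F2R, F2RL1, PLAU, PLAUR and PLAT, found by symbol among the 60483 genes of the expression table. Membership was selected on 2 grounds: the genes' known roles, and, for F3, the large fall with stearate that had already been seen in these samples. The stearate values of F3 are therefore given as a description without a test, and only the other members and the other comparisons were tested. RNA was sequenced from OVCAR5, an established human ovarian cancer cell line, in 18 samples that formed 6 conditions of 3. Cells were kept for 24 h in medium with albumin freed of fatty acids and received no fatty acid, 50 µM stearate or 50 µM oleate, each with either DMSO, the vehicle, or 1 µM CAY10566, an inhibitor of the desaturase SCD1 that converts stearate to oleate. Samples with no added fatty acid are called control, and each of the control, stearate and oleate groups holds 6 samples, 3 with DMSO and 3 with CAY10566. The study asked how stearate acts on cancer cells, whether oleate opposes it and what blocking desaturation adds. One cell line carried every condition, and the methods state that each treatment was done 3 times without saying whether on separate days or passages, so p-values measure only the spread between these samples.

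Tissue factor, the product of F3, is a membrane protein that binds factor VIIa and starts blood coagulation. TFPI and TFPI2 are Kunitz-type inhibitors, and thrombomodulin, the product of THBD, turns thrombin into an activator of the anticoagulant protein C. F2R and F2RL1 encode the protease-activated receptors PAR1 and PAR2, which thrombin and the tissue factor and factor VIIa complex, among other proteases, switch on by cutting their outer end. PLAU and PLAT encode the urokinase-type and the tissue-type plasminogen activators, which make plasmin from plasminogen, and PLAUR encodes uPAR, which holds urokinase at the cell surface. Carcinoma cells often carry tissue factor and urokinase on their surface, where both have been tied to invasion and to clotting.

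Values are TPM, a transcript abundance scaled to transcript length and to the sum of the sample, so levels of different genes can be set side by side while the number of reads behind them is unknown. A fold change is a difference of mean log2(TPM + 1) from limma, and "rose" or "fell" is used of an adjusted p under 0.05 over the 13789 genes with a mean of at least 1 TPM. In bulk RNA, fewer cells with a transcript and less transcript per cell cannot be told apart. All 6 epithelial markers were present, with a summed level of 2992 to 3134 TPM in control, 2410 to 2602 TPM in stearate and 2729 to 3045 TPM in oleate samples, and the lower epithelial sum with stearate did not overlap control. The 4 keratins of the list (KRT7, KRT8, KRT18 and KRT19) fell with stearate, while EPCAM (-0.05, adjusted p = 0.304) and CDH1 (-0.11, adjusted p = 0.284) overlapped control and did not pass. Of 4 serous ovarian markers, PAX8 had a mean of 11.8 TPM and MSLN of 1.02 TPM, while MUC16 was at 0.632 TPM and WT1 at 0.126 TPM. None of the 4 endothelial, 4 platelet or 4 hepatocyte markers reached a mean of 1 TPM, and the 4 endothelial markers together came to 1.27 to 1.85 TPM in control, 0.62 to 1.01 TPM in stearate and 1.51 to 2.30 TPM in oleate samples. The part of these marker levels in the members' results was not tested. The leukocyte list held 1 gene over 1 TPM, CD68, with PTPRC at 0.0056 TPM, and the fibroblast list held COL1A1 at 5.04 TPM. One control library stood apart: CAY10566 replicate 3 lay outside the other 5 controls by Dixon's criterion (a gap over 0.625 of the group's range) in 996 of the 13789 genes, against 57 to 111 genes for each of the other controls. Its size factor, the median over genes of a sample's TPM divided by the geometric mean of all samples, was 1.02, with the other controls between 0.942 and 0.968. Fatty acid results over groups of 6 that rest on this library are given with and without it. Among oleate samples, oleate+CAY10566 replicate 3 lay apart by the same criterion in 281 genes, against 85 to 152 for each of the others.

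PLAU was the most abundant member at 818 ± 28.0 TPM in control (SD, n = 6), followed by F3 at 372 ± 17.6 TPM and PLAUR at 355 ± 13.6 TPM, whose ranges overlapped each other. THBD stood at 110 ± 5.56 TPM, above F2RL1 at 67.8 ± 7.29 TPM, PLAT at 63.2 ± 3.73 TPM and TFPI at 52.0 ± 2.67 TPM. F2RL1 and PLAT overlapped, while TFPI lay below both. F2R was low at 16.9 ± 1.26 TPM. By mean over all 18 samples PLAU ranked 168 among all genes, PLAUR 338 and F3 438, so the start of coagulation and the urokinase pair were among the strongly expressed genes of these cells. TFPI2 had a mean of 0.890 TPM and a range of 0.35 to 1.64 TPM, which is under the threshold of 1 TPM, and is only noted as low. F2R was the least abundant member above that threshold.

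**Figure D1:**
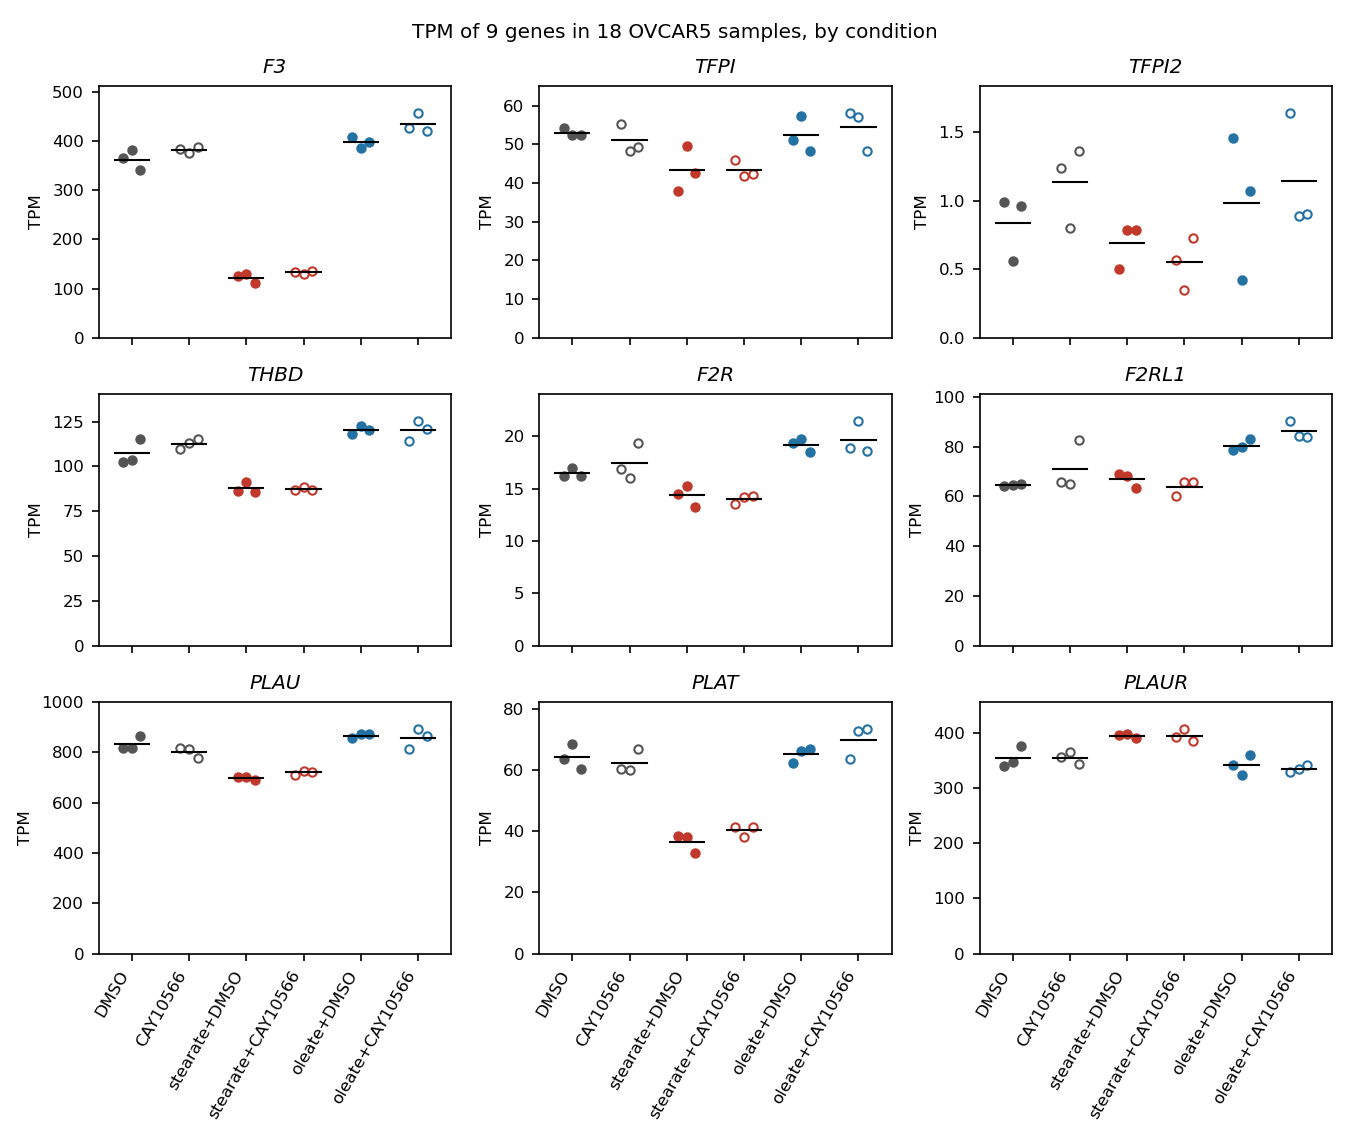
Level in TPM of each of the 9 genes in the 18 samples, by condition; each point is 1 sample, filled for DMSO and open for CAY10566, and the bar is the mean of 3. F3, THBD, PLAU and PLAT are lowest and PLAUR highest in both stearate conditions, and TFPI2 stays between 0.35 and 1.64 TPM.

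F3 is on the minus strand of chromosome 1, at chr1:94529173-94541759 of GRCh38. The 250 bases before its start, chr1:94541760-94542009, are shown because F3 differed most with stearate among the members and its promoter is a long-studied one. The sequence is from RefSeq (GRCh38.p14), on the minus strand, 5′ to 3′, with capitals at matches to 4 motifs searched on both strands: TGANTCA, the AP-1 consensus, GGGCGG, the core of the Sp1 site, GCGNGGGCG, the EGR1 consensus, and TATAAA.
F3: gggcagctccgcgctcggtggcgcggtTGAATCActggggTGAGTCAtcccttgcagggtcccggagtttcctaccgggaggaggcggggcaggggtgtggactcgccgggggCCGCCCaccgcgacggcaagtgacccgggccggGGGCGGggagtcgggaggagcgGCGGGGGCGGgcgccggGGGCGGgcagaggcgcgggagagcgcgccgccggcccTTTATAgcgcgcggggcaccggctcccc
Counted back from the start, the 2 AP-1 matches began at -223 and -210, the 4 Sp1 matches at -137, -104, -78 and -65, and the EGR1 match at -82, where it overlapped an Sp1 match. The TATA match, on the reverse strand of the run as printed, began at -28. Of 35114 promoter windows of the same length, 6.57% held TGANTCA, 42.6% held GGGCGG, 8.41% held GCGNGGGCG and 10.7% held TATAAA. These shares take no account of base content, and the F3 window was 78.0% G or C. The PLAUR window held 1 TGAGTCA at -186 and 1 CGCCCACGC, the EGR1 letters on the other strand, at -90. TFPI2, the low member, held 1 TGAATCA, 2 GGGCGG and 1 match to GCGNGGGCG at -118. Of 2 PLAU windows 1 held 3 GGGCGG and the other no match, F2RL1 held 2 GGGCGG, and TFPI had no match. The windows of TFPI, PLAU and PLAUR lie inside the genes as annotated, and that of F2RL1 in part. They therefore precede a start other than the outermost one annotated. These matches are letters in a window and do not show that a factor binds. The promoters of THBD, F2R and PLAT are not given here.

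F3 was lower in each stearate sample than in any other sample. It was at 364.35, 381.01 and 340.32 TPM with DMSO and at 384.22, 375.47 and 387.60 TPM with CAY10566 alone. With stearate and DMSO it was at 125.31, 129.20 and 110.99 TPM, and with stearate and CAY10566 at 133.30, 129.00 and 136.30 TPM. Every stearate sample was thus below 137 TPM and every control above 340 TPM. The group means were 372 ± 17.6 TPM in control and 127 ± 8.87 TPM in stearate (SD, n = 6 each), a difference of -1.54 on the log2 scale, with 8 of the 13789 genes further down. Against oleate the difference was -1.70, with 6 genes further down. The difference from control was -1.56 with DMSO and -1.52 with CAY10566.

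Of the 7 members tested, 5 fell with stearate, 1 rose and 1 did not pass the test. Over all genes tested, 5.97% fell and 13.5% rose, and after division by size factors 1405 genes fell and 1092 rose, against 823 and 1856 in TPM. The members' median log2 difference was -0.24, against 0.06 over all genes. With a log2 difference beyond 0.32 in either direction also asked for, 2 of the 7 were called, PLAT and THBD, against 5.35% of all genes. THBD passed that size only just, and 1 of the 7 was left without CAY10566 replicate 3, where THBD was at -0.31, or with DMSO samples only, where it was at -0.28, while its test still passed (adjusted p = 5.05e-06 and 0.0101). Between stearate and control 5 of the 7 did not overlap, against 7.79%.

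Among the anticoagulant members, THBD fell. Its control samples lay between 102.68 and 115.12 TPM with a median of 111 TPM, and its stearate samples between 85.51 and 91.44 TPM with a median of 86.8 TPM. The groups were apart, and the difference was -0.32 ± 0.03 (SE, adjusted p = 1.88e-06). TFPI, the inhibitor of the tissue factor complex, also fell, by a smaller step. It ran from 48.38 to 55.32 TPM in control (median 52.5 TPM) and from 38.01 to 49.63 TPM in stearate (median 42.4 TPM). Here the groups overlapped through 1 stearate sample, stearate with DMSO replicate 2, and the difference was -0.26 ± 0.06 (SE, adjusted p = 0.00634). F3 and TFPI differed in size: per length, F3 was 7.17 ± 0.551 times TFPI in control, 2.95 ± 0.301 times in stearate and 7.83 ± 0.708 times in oleate samples (SD, n = 6 each). The stearate ratios did not overlap the others, and because F3 was selected on its stearate values the ratio is given without a test.

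The 2 protease-activated receptors, whose genes are neighbours on chromosome 5 (F2R at chr5:76716126-76735770 and F2RL1 at chr5:76818933-76835315), received different calls with stearate. F2R fell from a median of 16.6 TPM (range 16.01 to 19.39 TPM) to 14.3 TPM (range 13.29 to 15.30 TPM). The groups were apart and the difference was -0.24 ± 0.05 (SE, adjusted p = 0.00315). F2RL1 did not pass, with a median of 64.8 TPM in control and 65.7 TPM in stearate, and a difference of -0.05 (95% interval -0.16 to 0.07, adjusted p = 0.589). The control that stood apart was the highest of its group for both genes: without CAY10566 replicate 3 the difference was -0.20 (adjusted p = 0.00376) for F2R and 0.01 (adjusted p = 0.845) for F2RL1. The difference between the receptors in their response was not tested.

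Both plasminogen activators fell, PLAT further than PLAU. PLAT was at 63.47, 68.57 and 60.17 TPM with DMSO, at 60.19, 59.93 and 66.65 TPM with CAY10566, at 38.27, 38.11 and 33.00 TPM with stearate and DMSO and at 41.47, 38.16 and 41.29 TPM with stearate and CAY10566. All 6 stearate samples were below 42 TPM and all 6 controls above 59 TPM. The difference was -0.71 ± 0.06 (SE, adjusted p = 5.62e-08), a level 1.63-fold lower, with 84 of the 13789 genes further down. PLAU, the most abundant member, ran from 779.01 to 866.46 TPM in control (median 816 TPM) and from 690.71 to 727.88 TPM in stearate (median 707 TPM). Its step was smaller and the groups were apart, at -0.20 ± 0.03 (SE, adjusted p = 1.76e-05). C10orf55, on the opposite strand, overlaps PLAU exons and was at a mean of 3.62 TPM, and whether counting used strand is not given in the sources used here.

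PLAUR was the only member to rise. It lay between 340.05 and 375.83 TPM in control (median 352 TPM) and between 384.38 and 407.11 TPM in stearate (median 394 TPM). No stearate sample reached down to the controls, and the difference was 0.15 ± 0.03 (SE, adjusted p = 0.000971). The rise was lost when samples were rescaled by size factors, at 0.10 (adjusted p = 0.0912), while the 5 falls were kept. The ligand and its receptor therefore moved in opposite directions on the TPM scale: per length, PLAU was 2.31 ± 0.0624 times PLAUR in control, 1.80 ± 0.0440 times in stearate and 2.55 ± 0.112 times in oleate samples (SD, n = 6 each). This ratio does not depend on the scaling of a sample, and the 3 groups did not overlap.

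**Figure D2:**
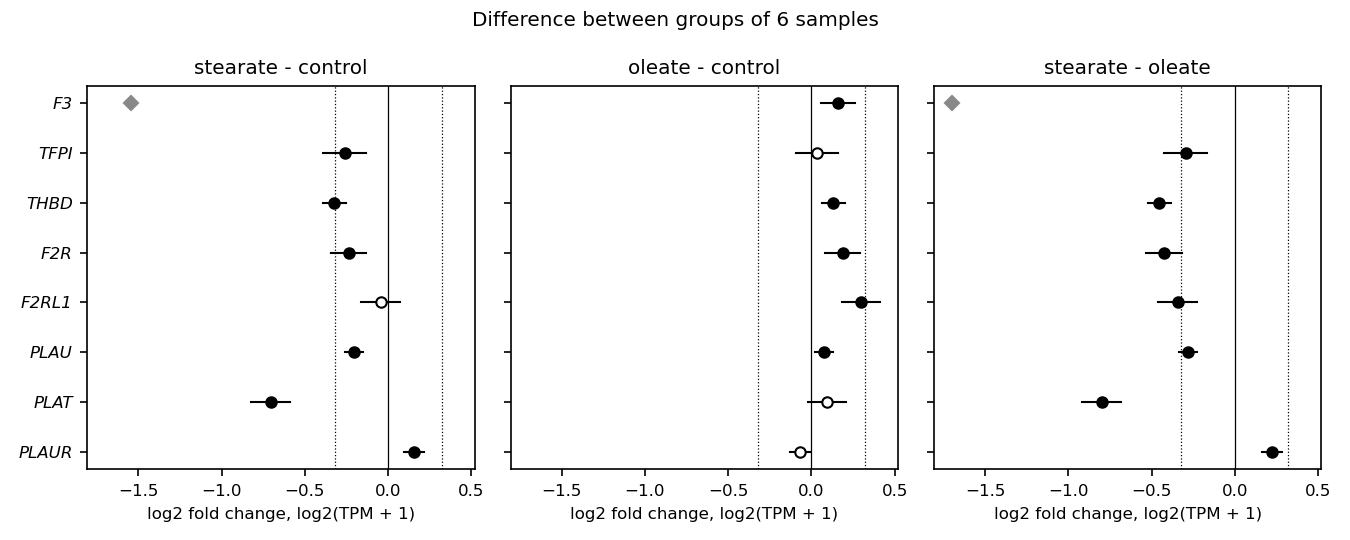
Difference of mean log2(TPM + 1) for the 8 members over 1 TPM in 3 comparisons of 6 against 6 samples; bars are 95% intervals, filled points have an adjusted p under 0.05, dotted lines mark a log2 difference of 0.32 in either direction, and grey diamonds are F3 where it was not tested. With stearate PLAT (-0.71) lies past the dotted line on the low side, THBD (-0.32, and -0.31 without CAY10566 replicate 3) lies at the line and PLAUR (0.15) lies above 0, and with oleate no member passes the line, although F2RL1 does without that library (0.36).

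Oleate, of the same length as stearate but with a double bond, gave differences that were mostly upward on the TPM scale. They were smaller than with stearate except for F2RL1 (0.30 against -0.05) and, without CAY10566 replicate 3, F2R (0.22 against -0.20). Of the 8 tested, 5 rose (F3 among them), none fell and 3 did not pass, against 23.0% of all genes that rose and 2.70% that fell. These shares depend on the scaling, since 1251 genes rose and 1257 fell after division by size factors, against 3169 and 372 in TPM. None of the 8 passed both the test and 0.32 on the log2 scale (6.90% of all genes did), although F2RL1 did without CAY10566 replicate 3 (0.36, adjusted p = 2.08e-05), and none was free of overlap with control (4.06%). At an unadjusted p under 0.05, 1 member was lower, PLAUR. F2RL1 rose most, from a control median of 64.8 TPM to 83.3 TPM (range 78.44 to 90.32 TPM), a difference of 0.30 ± 0.06 (SE, adjusted p = 0.0025). The groups overlapped only through CAY10566 replicate 3, at 82.59 TPM, and without it the difference was 0.36 (adjusted p = 2.08e-05). F2R rose by 0.19 ± 0.05 (SE, adjusted p = 0.0129), from a median of 16.6 to 19.1 TPM, and by 0.22 (adjusted p = 0.000983) without that library. Both receptors were thus higher with oleate, and F2RL1 had 1408 of the 13789 genes above it.

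F3 itself rose slightly with oleate. It was at 408.29, 385.83 and 397.52 TPM with oleate and DMSO and at 426.44, 456.80 and 420.89 TPM with oleate and CAY10566. The difference from control was 0.16 ± 0.05 (SE, adjusted p = 0.0202). These controls also entered the fall with stearate on which F3 was selected, and the stearate samples enter the estimate of spread. The test is therefore not free of that selection. The levels of F3 were in the order stearate with DMSO, stearate with CAY10566, DMSO, CAY10566, oleate with DMSO and oleate with CAY10566. Neighbours overlapped in this order except at the step from stearate to control and the step from oleate with DMSO to oleate with CAY10566.

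THBD rose by 0.13 ± 0.03 (SE, adjusted p = 0.00872) and PLAU by 0.08 ± 0.03 (SE, adjusted p = 0.0334). Without CAY10566 replicate 3 THBD was at 0.14 (adjusted p = 0.00262), while PLAU no longer passed, at 0.06 (adjusted p = 0.0554). PLAT differed from control by 0.09 (95% interval -0.02 to 0.21, adjusted p = 0.221), TFPI by 0.03 (-0.09 to 0.16, adjusted p = 0.731) and PLAUR by -0.07 (-0.13 to -0.01, adjusted p = 0.0856). These are small steps, and they sat on a general one: the median of all genes was 0.09 higher with oleate than in control in TPM. After size factor scaling, which brought that median close to 0, F2RL1 was the only riser at 0.20 (adjusted p = 0.00766), PLAUR fell at -0.17 (adjusted p = 0.00769), and F3 (0.06), THBD (0.03) and F2R (0.09) no longer passed. PLAU (-0.024), TFPI (-0.065) and PLAT (-0.0046) changed sign under that scaling without passing the test.

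**Figure D3:**
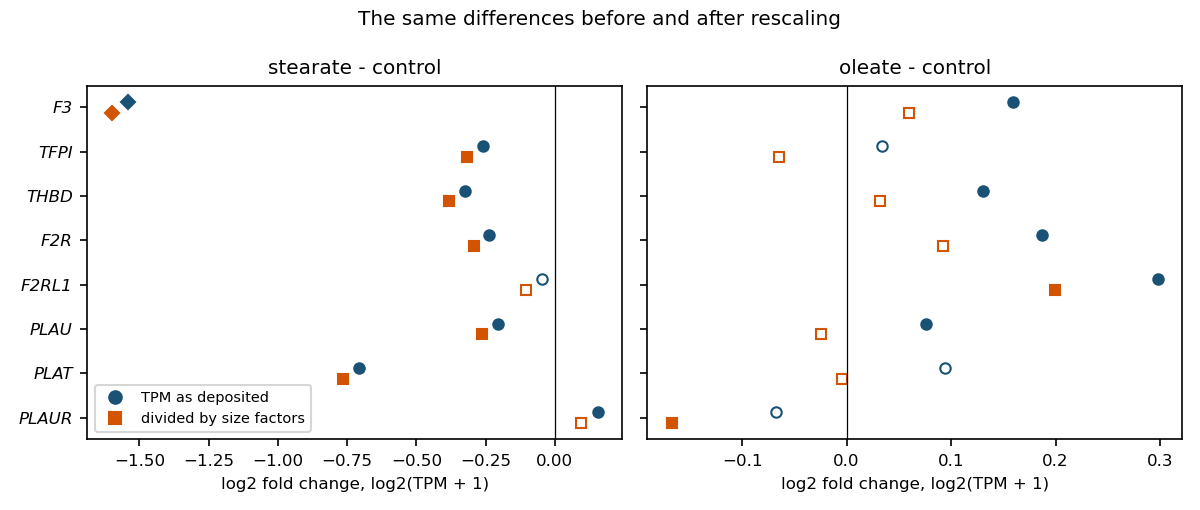
Differences of mean log2(TPM + 1) for 8 members, from TPM as deposited (circles) and after division by size factors (squares); filled symbols have an adjusted p under 0.05, and diamonds are F3 with stearate, which was not tested. With stearate every difference keeps its side of 0, whereas with oleate PLAU, TFPI and PLAT cross it and F2RL1 alone stays a riser.

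All 7 tested members differed between the 2 fatty acids over 6 samples a group, although TFPI did not with DMSO samples or CAY10566 samples alone (adjusted p = 0.108 and 0.0789). Stearate samples were lower than oleate samples in 6 of 7 members and higher in 1, PLAUR, against 14.3% of all genes lower and 6.85% higher. Over all genes that is 1967 lower and 945 higher in TPM, and 1590 and 1438 after division by size factors. The test and a log2 difference beyond 0.32 were both passed by 4 of the 7 (6.37% of all genes). F2RL1 fell short of that size after size factor scaling (-0.30) and with DMSO samples only (-0.26), which left 3 of the 7. Between the groups 6 of the 7 had no overlap (10.2%). PLAT was lower by 0.80 ± 0.06 (SE, adjusted p = 6.26e-09), a level 1.74-fold lower. THBD followed at -0.45 (adjusted p = 1.05e-08), F2R at -0.43 (adjusted p = 7.04e-06) and F2RL1 at -0.34 (adjusted p = 0.000195). TFPI at -0.29 (adjusted p = 0.00211) and PLAU at -0.28 (adjusted p = 1.65e-07) were smaller steps, and PLAUR was higher by 0.22 (adjusted p = 1.57e-05). These values share their stearate samples with the comparison to control and are not separate evidence of it.

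No tested member passed for CAY10566. In 9 samples with the inhibitor against 9 without, limma called 0 of the 7 members other than F3, none at an unadjusted p under 0.05, and 0 (0%) of all genes. F3, whose stearate samples enter this comparison, was 0.11 higher with the inhibitor and is given without a test. For the other 7 the differences ran from -0.01 to 0.07, and their 95% intervals lay between -0.11 and 0.16. Without fatty acid 0 of 8 members passed, also at an unadjusted p under 0.05, and 0% of all genes. With stearate 0 of the 7 others passed (0.0145% of all genes), and F3, not tested, stood 0.13 higher with the inhibitor. With oleate 0 of 8 passed (0% of all genes), and F3, at 0.13 (95% interval 0.02 to 0.24, adjusted p = 0.979), was the one member under an unadjusted p of 0.05.

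The responses to the fatty acids were also taken with and without the inhibitor, 3 samples against 3. With DMSO, 4 of the 7 tested members fell with stearate and PLAUR rose (14.0% of all genes passed in either direction), and with CAY10566 4 fell and none rose (4.75%). Without 1 sample at a time, 3 to 4 fell and 0 to 1 rose with DMSO, and 2 to 4 fell and 0 to 1 rose with CAY10566. PLAUR missed the threshold with CAY10566, at 0.15 against 0.16 with DMSO (adjusted p = 0.0521 and 0.0249). Its rise with DMSO was lost after size factor scaling. PLAT fell by 0.80 with DMSO (adjusted p = 5.18e-06) and by 0.61 with CAY10566 (adjusted p = 7.88e-05). PLAU fell by 0.25 and by 0.15 (adjusted p = 0.000249 and 0.0139), and THBD by 0.28 and by 0.36 (adjusted p = 0.00151 and 0.00022). TFPI passed with DMSO only (-0.29 against -0.23) and F2R with CAY10566 only (-0.29 against -0.18), but these contrasts were not told apart: none passed the test of stearate by CAY10566 (0 of 7 members other than F3, none at an unadjusted p under 0.05, 0.00725% of all genes). The F2R control with CAY10566 holds CAY10566 replicate 3, at 19.39 TPM against 16.01 to 16.93 TPM in the other controls. The contrast without that library is not given here. The interaction was 0.18 for PLAT (95% interval -0.03 to 0.40, adjusted p = 0.56).

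With oleate, F2RL1 (0.31, adjusted p = 0.00716) and THBD (0.17, adjusted p = 0.0171) rose with DMSO, 2 of 8 members, where 24.2% of all genes passed in either direction. With CAY10566 none of 8 passed, where 0.109% of all genes did and 5 members had an unadjusted p under 0.05, as 1852 of the 13789 genes had. F2RL1 was at 0.28 there (adjusted p = 0.136). The control of that comparison contains CAY10566 replicate 3, and without it 1 of 8 rose, F2RL1 at 0.39 (adjusted p = 0.00561), where 4.42% of all genes rose. No member passed the test of oleate by CAY10566 (0 of 8, none at an unadjusted p under 0.05, 0% of all genes), so the responses to oleate were not shown to differ either.

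F3 and PLAT had the most similar course of any pair of members over all 18 samples. Their Pearson correlation of log2(TPM + 1) was 0.98, a description that rests on the stearate samples standing apart. It was 0.64 over the 12 samples without stearate and 0.97 within the 6 stearate samples, and samples share their TPM scale. F2R and F2RL1 correlated at 0.84 over all 18, at 0.86 without stearate, the highest of any pair there, and at 0.84 within stearate. PLAUR correlated negatively with each of the 7 others over the 18 samples, from -0.89 with F3 to -0.67 with F2RL1. Without stearate it ran from -0.68 with F2R to -0.07 with PLAU, and within stearate from -0.17 with PLAT to 0.54 with THBD, positive with 5 of the 7. F3 and F2RL1 were at 0.59, 0.78 and 0.06.

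**Figure D4:**
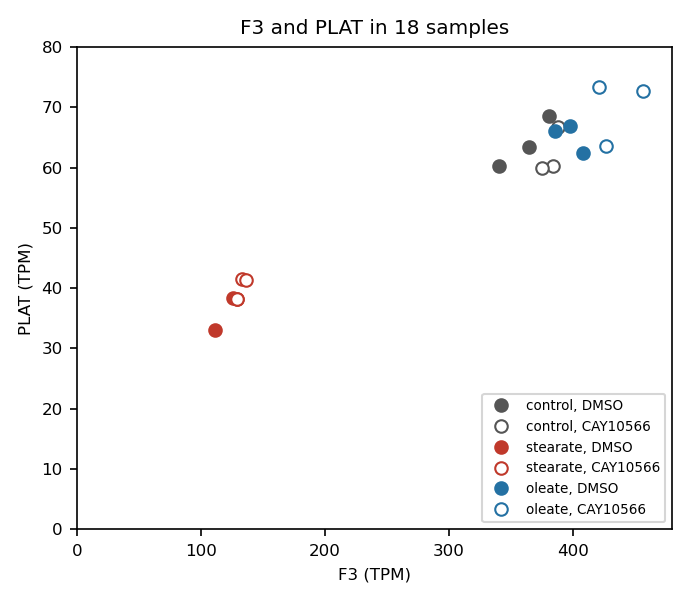
F3 against PLAT in TPM, each point 1 of the 18 samples, coloured by fatty acid, filled for DMSO and open for CAY10566. The 6 stearate samples form a separate cluster at 111 to 136 TPM of F3 and 33.0 to 41.5 TPM of PLAT, and control and oleate samples overlap.

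Among 10141 other genes with a mean of at least 5 TPM, the closest to F3 over the 18 samples were ANKRD1 (r = 0.988), TNS4 (0.988), TM4SF1 (0.987), PADI1 (0.986) and SNAPC1 (0.985). ANKRD1, an ankyrin repeat protein commonly used as a YAP readout, was at 74.9 TPM in control, 37.4 TPM in stearate and 89.8 TPM in oleate. Its correlation with F3 was 0.91 without stearate and 0.66 within stearate, and that of TM4SF1, a surface tetraspanin-like protein, was 0.91 and 0.50. TNS4 was at 0.46 without and 0.78 within stearate, PADI1 at 0.57 and 0.68, and SNAPC1 at 0.89 and -0.05. The closest to PLAT was F3, then the keratin KRT7 (0.972). F2RL1 was closest to EHD4 (0.969) and THBS1 (0.960), and these correlations stood at 0.96 each without stearate and at 0.90 and 0.92 within it. F2R was closest to PTTG1IP (0.966), THBD to MYC (0.967), PLAU to SYTL3 (0.960), PLAUR to UPP1 (0.947), and TFPI to a gene with no symbol, ENSG00000260328 (0.903). These 5 values over the 18 samples include the shift with stearate. Over the 12 samples without stearate the pairs were at 0.92, 0.77, 0.82, 0.92 and 0.84 in the same order. Within the 6 stearate samples they were at 0.66, 0.79, -0.07, 0.53 and 0.55, so the likeness of PLAU and SYTL3 was not seen there.

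The other genes of the system were taken from 9 lists of 95 genes, of which 59 had a mean of at least 1 TPM. Without CAY10566 replicate 3, 12 of 14 stearate calls and 15 of 16 oleate calls named from these lists by rule were kept, and XKR8, TIMP1 and VKORC1L1 lost theirs (adjusted p = 0.0657, 0.0516 and 0.0572). Most coagulation factors were low: 14 of 16 were under 1 TPM, and the 2 tested, F8 and F12, did not pass with either fatty acid. Of 9 further anticoagulant proteins 3 were tested, ANXA5, PROCR (the endothelial protein C receptor) and SERPINA5, and none passed with either fatty acid.

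Plasminogen, its receptors and its inhibitors gave 8 tested genes of 14, with 2 falling and 0 rising with stearate (4 and 0 after size factor scaling), where 5.97% of all genes fell in TPM and 1405 of 13789 after scaling, and a median of -0.09 against 0.06 over all genes. ANXA2, the annexin that docks plasminogen and tissue-type activator at the cell surface, fell from a median of 1688 TPM (range 1673 to 1727 TPM) to 1429 TPM (range 1385 to 1465 TPM). The difference was -0.25 ± 0.02 (SE, adjusted p = 1.05e-08). SERPINE2, protease nexin-1, fell by 0.21 ± 0.03 (SE, adjusted p = 0.000298). With oleate 1 of the 8 rose and 1 fell, against 23.0% of all genes up and 2.70% down in TPM. After size factor scaling 1 rose and 4 fell, where 1251 of 13789 genes rose and 1257 fell. THBS1, thrombospondin 1, rose by 0.57 ± 0.09 (SE, adjusted p = 0.0013), from a median of 24.7 to 39.9 TPM. S100A10, the partner of ANXA2, fell by 0.23 (adjusted p = 0.014).

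Among 6 tested membrane-anchored serine proteases and inhibitors, PRSS8, the protease prostasin, and SPINT2, a Kunitz-type inhibitor, fell with stearate, by 0.33 (adjusted p = 0.00024) and 0.13 (adjusted p = 0.00234), against 5.97% of all genes that fell. After size factor scaling 4 of the 6 fell, as did 1405 of 13789 genes. MET, the receptor for hepatocyte growth factor, and ST14, the protease matriptase, rose with oleate (2 of the 6, against 23.0% of all genes) by 0.27 (adjusted p = 0.00376) and 0.19 (adjusted p = 0.0104), ST14 at 0.09 after size factor scaling (adjusted p = 0.156). Of 6 tested matrix metalloproteases and inhibitors 2 fell and 1 rose with stearate (5.97% and 13.5% of all genes). MMP1 fell with stearate by 0.65 ± 0.09 (SE, adjusted p = 0.000111), from a median of 5.19 to 2.97 TPM, MMP10 by 0.38 (adjusted p = 0.0368) at about 1 TPM, and TIMP1 rose by 0.15 (adjusted p = 0.035, and 0.09 after size factor scaling, adjusted p = 0.334). None of these 6 passed with oleate, and 1 fell after size factor scaling, as did 1257 of 13789 genes.

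Tissue factor works best on membranes that expose phosphatidylserine, and 8 genes listed for this exposure or for tissue factor activation were tested. With stearate 3 rose, against 13.5% of all genes, XKR8 by 0.22, PDIA3 by 0.11 and P4HB by 0.11, and none of these passed after size factor scaling. With oleate the flippase ATP11A (0.49), the scramblase ANO6 (0.37) and the flippase subunit TMEM30A (0.31) rose, against 23.0% of all genes, and stayed past the threshold after scaling. There 1 other gene of the list fell, and 1251 of 13789 genes rose and 1257 fell. Of 7 tested receptors and signal partners of the protease-activated family, 1 rose with stearate (13.5% of all genes did), F2RL2, which encodes PAR3, by 0.29 (adjusted p = 0.0174) at a mean of 2.27 TPM. With oleate 4 rose (23.0% of all genes), among them ARRB1, GNA13 and GNA11, and 0 of 7 passed after size factor scaling. Of 5 genes for gamma-carboxylation and factor V and VIII export 0 passed with stearate, and 1 fell after size factor scaling, as did 1405 of 13789 genes. With oleate 3 of the 5 rose, against 23.0% of all genes, and of these MCFD2 (0.20) stayed past the threshold after scaling.

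Of 14 transcription factors described at the F3, PLAU and PLAUR promoters, 4 rose with stearate (13.5% of all genes did) and none fell, with a median of 0.10 against 0.06 over all genes. EGR1 rose by 1.08 ± 0.07 (SE, adjusted p = 8.71e-09), from a control median of 19.4 TPM (range 18.04 to 20.91 TPM) to 41.8 TPM (range 36.82 to 50.43 TPM). FOS rose by 0.50 (adjusted p = 0.000613), NFKB1 by 0.31 (adjusted p = 0.0003) and JUNB by 0.30 (adjusted p = 5.34e-06), from a median of 86.5 to 107 TPM. With oleate 9 of the 14 rose, against 23.0% of all genes in TPM. After size factor scaling 7 rose and 1 fell, where 1251 of 13789 genes rose and 1257 fell. EGR1 (0.31, adjusted p = 0.00556) and NFKB1 (0.20, adjusted p = 0.00812) were higher with oleate as well, with REL at 0.67 (adjusted p = 0.0103), ETS1 at 0.56 (adjusted p = 0.000361) and SP1 at 0.38 (adjusted p = 0.0126). Transcript levels do not measure the activity of a factor, and none was tested at these promoters.

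**Figure D5:**
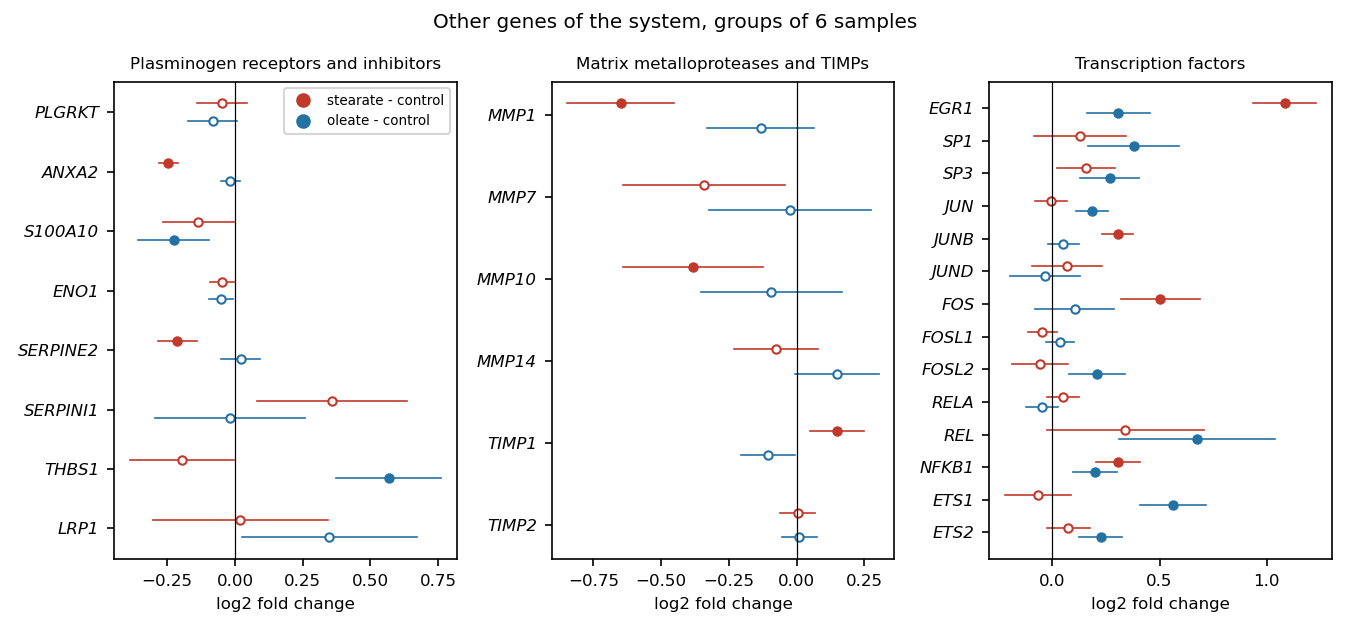
Difference of mean log2(TPM + 1) of other genes of the system with stearate (red) and oleate (blue) against control, 6 samples a group; bars are 95% intervals and filled points have an adjusted p under 0.05. With stearate the largest difference past the threshold in each list shown is that of ANXA2 (-0.25), MMP1 (-0.65) and EGR1 (1.08). With oleate it is that of THBS1 (0.57) and of REL (0.67), which is followed by ETS1 (0.56), and no metalloprotease or inhibitor of one passes.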

How the data were processed

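Per the labels and the study's methods, polyadenylated RNA was made into stranded libraries and sequenced as 100 bp paired ends on a NovaSeq 6000. The authors trimmed reads with Trim Galore, aligned them with STAR 2.7.1a to GRCh38 (Ensembl release 99) and estimated abundance with RSEM. The deposited values are TPM per gene to 2 decimals, summing to the same total in each sample. Read counts were not used here, so the depth is unknown. Of the gene identifiers, 93.1% matched a symbol. Genes with a mean of at least 1 TPM were tested on log2(TPM + 1) with limma 3.58.1 (R 4.3.3; intensity trend, Benjamini-Hochberg adjustment, two-sided): 3 groups of 6 by fatty acid, CAY10566 against DMSO with fatty acid as a term, and the 6 conditions with interactions. A gene was called where its log2 difference also passed 0.32. The fits were tested on simulated data. Members and lists were chosen with earlier results of these data known. Named genes were all members and, per list, up to 3 genes with the largest change past the threshold; JUNB, C10orf55 and the genes given as not passing were named after their values were seen. The 9 alternatives and 18 fits without 1 sample are described at the end. One listed gene is not reported here. Promoters are from RefSeq, coordinates from GENCODE release 44. No column of the authors' own comparisons was used.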

Additional observations from a re-analysis of the deposited data

Results flagged for a closer look

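In 2 of 27 groups of 6 examined (9 genes, 3 fatty acid groups), 1 sample lay apart from the rest, and chance alone flags about 1 group in 20. Both were the same control library, CAY10566 replicate 3. F2R was at 19.39 TPM there, with the other controls between 16.01 and 16.93 TPM, and the gap took 0.728 of the group's range (critical value 0.625). F2RL1 was at 82.59 TPM, with the other controls between 64.03 and 65.94 TPM, and the gap took 0.897 of the range. Both values lay in the range of the oleate samples.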

How the results depend on the processing

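The 24 per-gene differences (8 members, 3 fatty acid comparisons) were recomputed under 9 alternatives and without each of 18 samples. F3 with stearate, which was not tested, ran from -1.60 to -1.50. PLAT with stearate ran from -0.80 to -0.61, past the threshold in every fit. All 24 kept their direction, and the 22 with a test their side of the threshold, with a pseudocount of 0.1, a mean TPM of at least 5 and CAY10566 as a covariate. Size factors turned PLAU (-0.024), TFPI (-0.065) and PLAT (-0.0046) with oleate. They left 0 members higher with stearate and 1 higher and 1 lower with oleate, 0 higher with stearate within DMSO, and 1 higher and 1 lower with oleate within DMSO. The rises of PLAU and F3 with oleate were lost with no filter on TPM (adjusted p = 0.0735 and 0.052), leaving 3 risers, and that of PLAU without the variance trend and in 8 of the 18 fits without 1 sample, those without DMSO replicate 1 or 2, CAY10566 replicate 1, 2 or 3, oleate+DMSO replicate 2 or 3 or oleate+CAY10566 replicate 2 (lowest and highest adjusted p over the 18 were 0.0135 and 0.077). With no filter or no trend, 0 members were higher with stearate within DMSO, and with a mean TPM of at least 5, 1 was higher with stearate within CAY10566.

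With DMSO samples only, 3 members were lower and 0 higher with stearate (509 and 1650 of the 13789 genes), 3 were higher with oleate (22.4% of genes), F2RL1 turned with stearate (0.053) and TFPI with oleate (-0.023). With CAY10566 samples only, 2 were lower and 0 higher with stearate (171 and 73 genes) and 0 higher with oleate (0 genes). TFPI no longer differed between stearate and oleate in either (adjusted p = 0.108 and 0.0789). These fits hold 3 samples a group. Without 1 sample at a time, F2RL1 with stearate ran from -0.061 to 0.012, turning without CAY10566 replicate 3. Counts ran from 0 to 1 for members lower with oleate (1 without oleate+DMSO replicate 3, where PLAUR passed), from 0 to 1 higher with stearate within DMSO (0 without DMSO replicate 1 or 2 or stearate+DMSO replicate 1 or 2), from 0 to 1 higher and 2 to 4 lower with stearate within CAY10566 (2 without CAY10566 replicate 1 or stearate+CAY10566 replicate 1), from 1 to 4 higher with oleate within DMSO, and from 0 to 1 higher with oleate within CAY10566. F3 with oleate lost its call without DMSO replicate 3 (adjusted p = 0.0537).

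With the replicate number as a block, all 24 kept their direction and the 22 with a test their side, with 5 members lower and 1 higher with stearate, 5 higher with oleate, and 3 instead of 4 lower with stearate within CAY10566. Samples with the same number did not deviate together: over 45 such pairs r ran from -0.18 to 0.10 with a median of 0.01, so the numbers were not taken to pair samples. With a log2 difference beyond 0.32 also asked for, THBD with stearate was short of it without DMSO replicate 3, CAY10566 replicate 2 or 3, stearate+DMSO replicate 1 or 3 or stearate+CAY10566 replicate 1 or 3. Between stearate and oleate F2RL1 was short of it without stearate+CAY10566 replicate 1 or oleate+CAY10566 replicate 1, and TFPI passed it without stearate+DMSO replicate 2. The causes of these changes were not tested. TPM keeps no depth, so the counting error of low members, F2R and TFPI2 above all, is unknown.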
